A study of Mus musculus with 12 samples.

Results

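The Dlk1-Dio3 region of mouse chromosome 12 is an imprinted stretch that carries a few protein-coding genes, several long noncoding RNAs and a dense array of microRNA hairpins. Its transcripts were followed here in fetal livers with and without PPARα, the nuclear receptor that controls hepatic lipid catabolism. The members were a list of 50 genes lying between Dlk1 and Dio3, of which 6 give long transcripts and 44 are microRNA genes. A member was counted as measured when a probeset of the array was annotated to it and to no other gene, and this held for 45 of the 50, among 19938 genes measured in all. They were 5 long transcripts (Dlk1, Meg3, Rtl1, Rian and Dio3) and 40 hairpins. Mirg and Mir410 share 1 probeset, so neither could be named from it, and Mir1197, Mir758 and Mir453 are not listed in the probe annotation used here. The region was chosen because its signals were higher in the knock-out livers of these same arrays, so every difference between genotypes among its members is given below as a description, with no test.

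In this region the 2 parental chromosomes are read differently. Dlk1, Rtl1 and Dio3 are transcribed from the paternal chromosome, whereas Meg3, Rian, Mirg and the microRNAs lying in and around these noncoding RNAs come from the maternal one. Dlk1 encodes a transmembrane protein related to the Notch ligands and is a classical marker of fetal hepatoblasts, the precursors of hepatocytes and bile duct cells. Rtl1 derives from a retrotransposon and acts in the placenta, and Dio3 encodes the deiodinase that inactivates thyroid hormone. Both parent-specific patterns depend on DNA methylation at control regions near Meg3.

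The data were 12 expression arrays, each of 1 whole liver taken by cesarean section at E19.5, the last day of gestation, with 6 Ppara-/- and 6 Ppara+/+ fetuses. All were offspring of heterozygous parents, so that both genotypes could share a litter, and the labels give the strain as SV129 while the study's methods name a C57BL/6 background. The knock-out is constitutive and affects every tissue, and the fetuses received no agent. The methods state that several litters were used, but the labels do not tie a fetus to its litter, so the p-values below do not allow for litter. Livers are called knock-out or wild-type mice 1 to 6, as numbered in the labels, which also give each an animal number. Values are the authors' log2 signals, in which a difference of 1 is a doubling, and errors are SD over 6 livers unless stated.

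The Ppara probeset separated the genotypes, at 9.83 ± 0.09 in knock-out and 10.84 ± 0.10 in wild-type livers (n = 6 each), with no overlap. Array medians lay between 6.71 and 6.75. Liver identity was plain in both groups, with Alb at 13.56 ± 0.03 in knock-out and 13.55 ± 0.05 in wild-type livers. Xist and the Y-linked genes placed 5 knock-out livers with females and 1 with males, against 3 and 3 in the wild-type group. In whole livers, fewer cells of a type and less RNA per cell cannot be told apart.

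The microRNA hairpins with the largest differences between genotypes were Mir379, Mir382, Mir380, Mir411, Mir369 and Mir376b. Their mature microRNAs are shown because they carry most of what follows, with Mir376c added for a shared seed and Mir412 for a shared motif. The seed, bases 2 to 8 and the part that pairs with target mRNAs, is in capitals. Sequences are RefSeq's, 5′ to 3′, and those shown all lie on the plus strand of chromosome 12 in build GRCm38.p6. The first begins at base 109709065 and the last ends at base 109743486.
miR-379-5p: uGGUAGACuauggaacguagg
miR-379-3p: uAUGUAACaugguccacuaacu
miR-411-5p: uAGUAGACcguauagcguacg
miR-411-3p: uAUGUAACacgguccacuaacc
miR-380-5p: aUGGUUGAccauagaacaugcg
miR-380-3p: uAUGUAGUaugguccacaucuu
miR-376c-5p: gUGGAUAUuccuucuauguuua
miR-376b-5p: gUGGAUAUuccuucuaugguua
miR-376b-3p: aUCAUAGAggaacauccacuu
miR-382-5p: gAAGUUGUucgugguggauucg
miR-382-3p: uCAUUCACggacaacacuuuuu
miR-412-3p: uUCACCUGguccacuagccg
miR-369-5p: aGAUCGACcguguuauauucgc
miR-369-3p: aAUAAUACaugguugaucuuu

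All 44 listed hairpins had a mature sequence in RefSeq, 83 in total. These hold 78 different seeds, and 5 of these were shared within the region. One, AUGUAAC, is common to miR-379-3p and miR-411-3p, and another, UGGAUAU, to miR-376c-5p and miR-376b-5p. A short run of letters recurs among the members. The letters GGUCCA stand in 5 of the 83 mature sequences (6.02%), those of miR-379-3p, miR-411-3p, miR-380-3p, miR-758-3p and miR-412-3p. They stand in 7 of all 1738 mouse mature microRNAs (0.403%), these 5 included. The run was looked for because it recurs here, so nothing is read from the gap between these shares. The array carries probes for the hairpin genes in total RNA and does not measure the mature strands. Probe sequences were not used here, so for near-identical hairpins such as Mir376a, Mir376b and Mir376c it is uncertain which of them a probe reads.

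Along the region, 44 of the 45 measured members had a higher mean in the knock-out livers, with a median difference of 0.40 on the log2 scale, or 1.32-fold. The median over all 19938 genes was 0.008. Of the members, 27 lay past the threshold for a higher signal (adjusted p under 0.05 in the limma fit to all genes) and 0 for a lower one. Over all genes the share past the threshold was 3.42% for higher and 3.82% for lower signals, and since the region was picked on this contrast nothing is read from that gap. In 8 members every knock-out liver lay above every wild-type liver, a pattern found in 1.3% of all genes, and in 0 members did every knock-out liver lie below (2.29% of all genes). The 8 were Rian, Mir136, Mir341, Mir376a, Mir376c, Mir300, Mir134 and Mir496a.

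**Figure D1:**
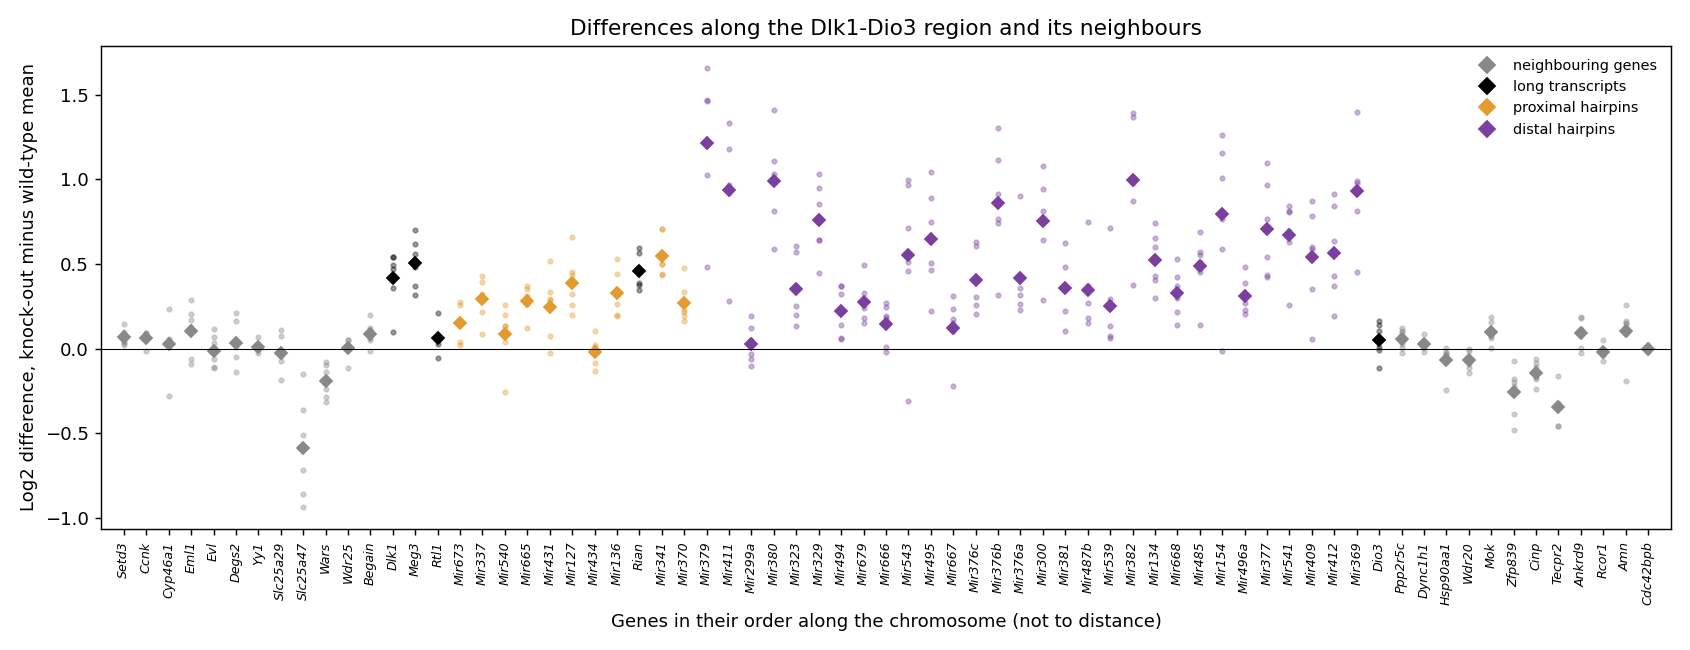
Difference in log2 signal (vertical axis) for the 45 measured members and 24 neighbouring genes in chromosomal order (horizontal axis, not to distance). Diamonds are the mean of 6 knock-out livers minus the mean of 6 wild-type livers, and dots are the single knock-out livers minus the wild-type mean. The diamonds of the distal hairpins reach 1.22 at Mir379, while those of the nearest genes outside, Begain and Ppp2r5c, stand at 0.09 and 0.06.

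Among the long transcripts, Dlk1, Meg3 and Rian had higher means in the knock-out livers, and Rtl1 and Dio3 were close to equal. Dlk1 read 11.28, 11.65, 11.54, 11.72, 11.72 and 11.67 in knock-out mice 1 to 6 and 10.96, 10.95, 11.15, 11.03, 11.39 and 11.59 in wild-type mice 1 to 6. The groups overlapped through knock-out mice 1 and 3, the lowest of their group, and wild-type mice 5 and 6, the highest of theirs. Knock-out mouse 1 lay below both of these wild-type livers and knock-out mouse 3 below wild-type mouse 6 only. The means were 11.60 ± 0.17 and 11.18 ± 0.26, a difference of 0.42 with a standard error of 0.11 (1.33-fold).

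Meg3, the maternally expressed noncoding RNA next to Dlk1, read 10.61, 10.86, 10.67, 10.998, 10.78 and 10.92 in the knock-out livers. It read 10.13, 10.12, 10.35, 10.04, 10.40 and 10.73 in the wild-type livers. Only wild-type mouse 6 reached into the knock-out range, and the difference of means was 0.51 ± 0.11 (SE), the largest of the long transcripts. Dlk1 and Meg3 are read from opposite parental chromosomes, and both had higher means in the knock-out group.

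Rian, the noncoding RNA that hosts box C/D snoRNAs, lay between 7.50 and 7.75 in the knock-out livers and between 6.89 and 7.45 in the wild-type livers. The groups did not overlap, and the means differed by 0.46 ± 0.09 (SE). Rtl1 stood at 6.35 ± 0.09 and 6.29 ± 0.13, a difference of 0.06, and its highest value of all was in wild-type mouse 6 at 6.54. Dio3 stood at 5.39 ± 0.10 and 5.34 ± 0.18, a difference of 0.05. Its signal of 5.37 over the 12 livers was below 5.46, the 25th percentile of all genes, so this probeset was dim in both genotypes. For these last 2 genes the groups overlapped over most of their range, and both differences were smaller than the SD of either group.

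**Figure D2:**
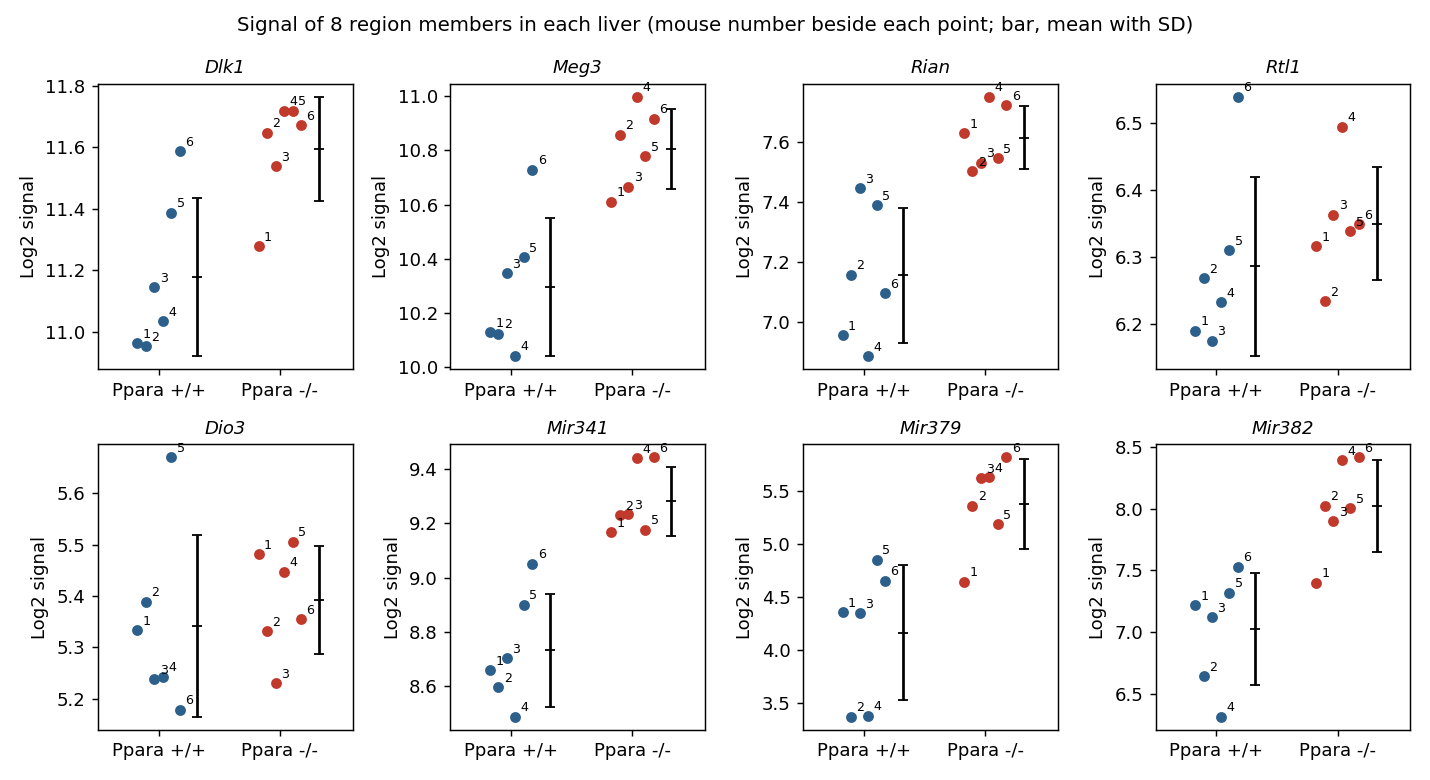
Log2 signal (vertical axes) of 8 members in each wild-type (blue) and knock-out (red) liver, with mouse numbers beside the points and bars giving mean and SD. Rian and Mir341 show no overlap, and Rtl1 and Dio3 overlap widely. Dlk1, Meg3, Mir379 and Mir382 overlap between their lowest knock-out and highest wild-type livers.

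The proximal hairpins, Mir673 to Mir370, lie between Meg3 and the distal array and include those antisense to Rtl1. Of the 10 measured, 9 had a higher mean in the knock-out livers and 5 lay past the threshold, with a median difference of 0.28. Mir341 differed most of these. It read between 9.17 and 9.44 in the knock-out livers and between 8.49 and 9.05 in the wild-type livers, without overlap, a difference of 0.55 ± 0.09 (SE).

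Mir127, which is antisense to Rtl1, stood at 7.12 ± 0.17 in knock-out and 6.73 ± 0.29 in wild-type livers. Wild-type mice 5 and 6, at 6.995 and 7.19, lay inside the knock-out range and the other wild-type livers lay between 6.51 and 6.64, all below it. Mir136 was dim but did not overlap, at 3.76 to 4.10 against 3.36 to 3.69. Mir434 was the only member with a lower mean, at 3.48 ± 0.08 against 3.50 ± 0.17.

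The distal hairpins, Mir379 to Mir369, form the large microRNA array of the region, downstream of Rian. All 30 measured had a higher mean in the knock-out livers, with a median difference of 0.53, and 19 lay past the threshold. Their differences ran from 0.03 for Mir299a to 1.22 for Mir379, and 16 of the 30 exceeded 0.5. Small and large differences stood side by side along the array. Mir299a lies between Mir411 and Mir380, which differed by 0.94 and 0.99.

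Mir379 read 4.65, 5.36, 5.63, 5.63, 5.19 and 5.82 in knock-out mice 1 to 6. It read 4.36, 3.37, 4.35, 3.38, 4.86 and 4.66 in wild-type mice 1 to 6. Knock-out mouse 1 fell just under wild-type mice 5 and 6, while the other knock-out livers were above all wild-type livers. The difference of 1.22 ± 0.26 (SE) is 2.33-fold, although at a mean signal of 4.77 this probeset was among the dim ones.

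Mir382 differed by nearly as much. It read 7.40, 8.02, 7.90, 8.39, 8.01 and 8.42 in the knock-out livers. It read 7.22, 6.64, 7.12, 6.32, 7.32 and 7.53 in the wild-type livers. As for Mir379, 5 of the 6 knock-out livers lay above the whole wild-type group, and the difference was 0.998 ± 0.20 (SE).

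Mir380 differed by 0.99 ± 0.21 (SE), Mir411 by 0.94 ± 0.22, Mir369 by 0.93 ± 0.18 and Mir376b by 0.86 ± 0.16. In all 4, again 5 of 6 knock-out livers lay above every wild-type liver. Mir300 was the distal hairpin with the largest difference among those without overlap, at 6.23 to 7.02 in knock-out and 5.59 to 6.19 in wild-type livers. Mir134, a brain-enriched microRNA known from dendrites, lay between 8.01 and 8.45 against 7.46 and 7.91.

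The hairpins that share a seed can be set side by side. Mir379 differed by 1.22 and Mir411 by 0.94, while Mir376b differed by 0.86 and Mir376c by 0.40. Higher means were found at low and at high signal. The 15 members below the 25th percentile of signal, 5.46, had a median difference of 0.40, and so had the 30 members at or above it. In the upper range, 15 members lay at or above the median signal of all genes, 7.15.

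The livers within a genotype differed among themselves in the region as a whole. The mean of all members, set against the wild-type mean, was 0.23, 0.44, 0.40, 0.62, 0.41 and 0.64 in knock-out mice 1 to 6. It was -0.05, -0.18, -0.02, -0.25, 0.25 and 0.24 in wild-type mice 1 to 6. The knock-out mean of 0.46 ± 0.15 stood above the wild-type spread of ± 0.21, but knock-out mouse 1 lay just below wild-type mice 5 and 6. Wild-type mice 5 and 6 were both above the other wild-type livers in 28 of the 45 members (62.2%), a pattern seen in 11.2% of all genes, and both below them in 0 members (10.7% of all genes). Knock-out mouse 1 was the lowest of its group in 27 members (60.0%, against 22.7% of all genes). Many members share a precursor transcript, so these counts do not stand for that many separate observations.

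**Figure D3:**
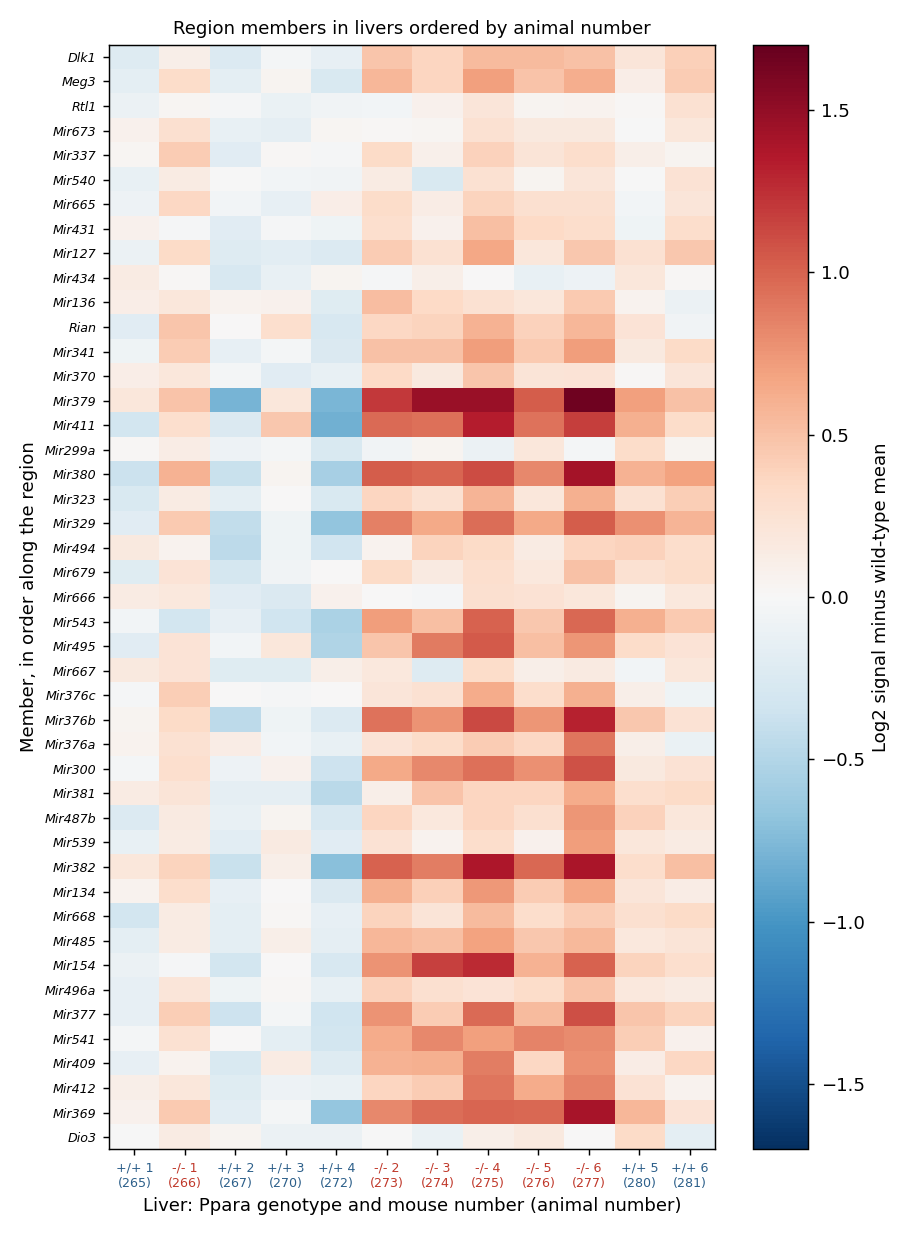
Log2 signal minus the wild-type mean (colour) of the 45 members in order along the region (rows) and the 12 livers in order of animal number (columns, knock-out labels in red, wild-type in blue). Knock-out mice 2 to 6, with consecutive animal numbers, form the darkest block, wild-type mice 5 and 6 to their right are intermediate, and knock-out mouse 1 stands among the lighter wild-type livers on the left.

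The values also moved with the animal numbers of the labels. Wild-type mice 1 to 4 and knock-out mouse 1 carry the 5 lowest numbers, knock-out mice 2 to 6 come next, and wild-type mice 5 and 6 carry the highest. Within the 6 lowest numbers (2 knock-out and 4 wild-type livers), all 45 members had a higher knock-out mean, with a median difference of 0.42. Within the 6 highest (4 knock-out and 2 wild-type livers), 38 did and 7 did not, and the median was 0.20. The liver means of the region differed by 0.46 in the first set and by 0.27 in the second. With the lower and higher animal numbers as a block in the fit, the median over the members was 0.34. What the animal number stands for is not given in the labels, and its part in the result was not tested.

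Sex moved with genotype as well. Within the female livers (5 knock-out and 3 wild-type), 42 of 45 members had a higher knock-out mean, with a median difference of 0.26. Within the male livers (1 and 3), all 45 did, and the median was 0.50. With a sex score as covariate the median over the members was 0.37.

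The neighbouring genes were not chosen on this contrast and were tested. Their difference from the members was not tested, since the choice of the members fixes it in part. Of the neighbouring genes on both sides, 24 were measured. In limma's test 0 of them rose in the knock-out livers (adjusted p under 0.05 over all genes), against 3.42% of all genes. In a list of 24, a count of 0 is near that share. At an unadjusted p under 0.05, 0 neighbours rose as well, against 2095 of all 19938 genes. The median difference of the neighbours was 0.01. Next to Dlk1, Begain differed by 0.09 (limma adjusted p = 0.66) and Wdr25 by 0.00 (adjusted p = 0.97). Beyond Dio3, Ppp2r5c, a phosphatase subunit, differed by 0.06 (adjusted p = 0.51) and Dync1h1, the dynein heavy chain, by 0.03 (adjusted p = 0.77). The SE of these 4 differences ran from 0.04 for Dync1h1 to 0.09 for Begain.

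In the same limma fit, 4 of the 24 neighbours fell, against 3.82% of all genes. Tecpr2, which acts in autophagy, fell by 0.35 on the log2 scale without overlap (adjusted p = 0.0018). Slc25a47, a liver mitochondrial carrier, fell by 0.59 (adjusted p = 0.034), Zfp839 fell by 0.26 (adjusted p = 0.047) and Wars, the tryptophanyl-tRNA synthetase, fell by 0.19 (adjusted p = 0.0499). Tecpr2 passed in every alternative fit, its adjusted p reaching at most 0.0071. The other calls were lost, in limma, with sex as a covariate (0.099, 0.12 and 0.14) and without any one of several livers, among them knock-out mice 2, 4, 5 and 6 and wild-type mice 1 and 2.

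Whether members vary together from liver to liver was asked within each genotype, where the contrast that chose the region plays no part. For each of 6 pairs in each genotype, Pearson's r and Spearman's rho over 6 livers were set against all 720 pairings in a two-sided exact permutation test, 12 relations in total. Dlk1 and Meg3 gave r = 0.947 and rho = 0.829 in the wild-type livers (exact permutation p = 0.0069 and 0.0583), and Benjamini-Hochberg adjustment brought these to 0.0722 and 0.2332. In the knock-out livers they gave r = 0.807 and rho = 0.657 (exact permutation p = 0.0278 and 0.175, adjusted 0.0722 and 0.42). No relation passed after adjustment.

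Without the 2 livers farthest from the median of Dlk1, r between Dlk1 and Meg3 was 0.752 in wild-type livers and 0.076 in knock-out livers, where it rested on mice 1 and 3. Meg3 and the mean of the distal hairpins gave r = 0.849 and rho = 0.943 in wild-type livers (exact permutation p = 0.0278 and 0.0167, adjusted 0.0722 and 0.1998). In knock-out livers they gave r = 0.863 and rho = 0.886 (exact permutation p = 0.0292 and 0.0333, adjusted 0.0722 and 0.1998). This pair kept r = 0.842 and 0.685 without its 2 farthest livers. Neither this pair nor that of Dlk1 with the distal hairpins, given next, was planned. Mirg proved to have no probeset of its own, so the planned pairs of Mirg with Rian and Meg3 could not be computed.

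Dlk1 and the distal hairpins gave r = 0.861 and rho = 0.771 in wild-type livers (exact permutation p = 0.0347 and 0.1028, adjusted 0.0722 and 0.3084), and r = 0.793 and rho = 0.371 in knock-out livers (p = 0.0722 and 0.4972, adjusted 0.1238 and 0.5424). Without the 2 farthest livers r was 0.395 and 0.012, so both rested on those livers. Dlk1 and Rtl1, both read from the paternal chromosome, gave r = 0.842 and rho = 0.486 in wild-type livers (exact permutation p = 0.0361 and 0.3556, adjusted 0.0722 and 0.5033), and r turned to -0.624 without wild-type mice 5 and 6. In knock-out livers r was 0.283 and rho 0.314 (exact permutation p = 0.4889 and 0.5639, adjusted 0.5867 and 0.5639), and r was 0.767 without mice 1 and 3.

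Meg3 and Rian gave r = 0.405 in wild-type livers (exact permutation p = 0.4167, adjusted 0.5556) and 0.559 in knock-out livers (exact permutation p = 0.2486, adjusted 0.3729), with rho = 0.486 in both (p = 0.3556, adjusted 0.5033). Without the 2 farthest livers r was 0.891 and 0.607. Dlk1 and Dio3 gave r = 0.048 in wild-type livers (exact permutation p = 0.9403, adjusted 0.9403) and -0.048 in knock-out livers (exact permutation p = 0.9139, adjusted 0.9403). Their rho was -0.429 and 0.429 (p = 0.4194, adjusted 0.5033), and r was -0.842 and 0.944 without the 2 farthest livers, so neither genotype gave a stable value for this pair.

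**Figure D4:**
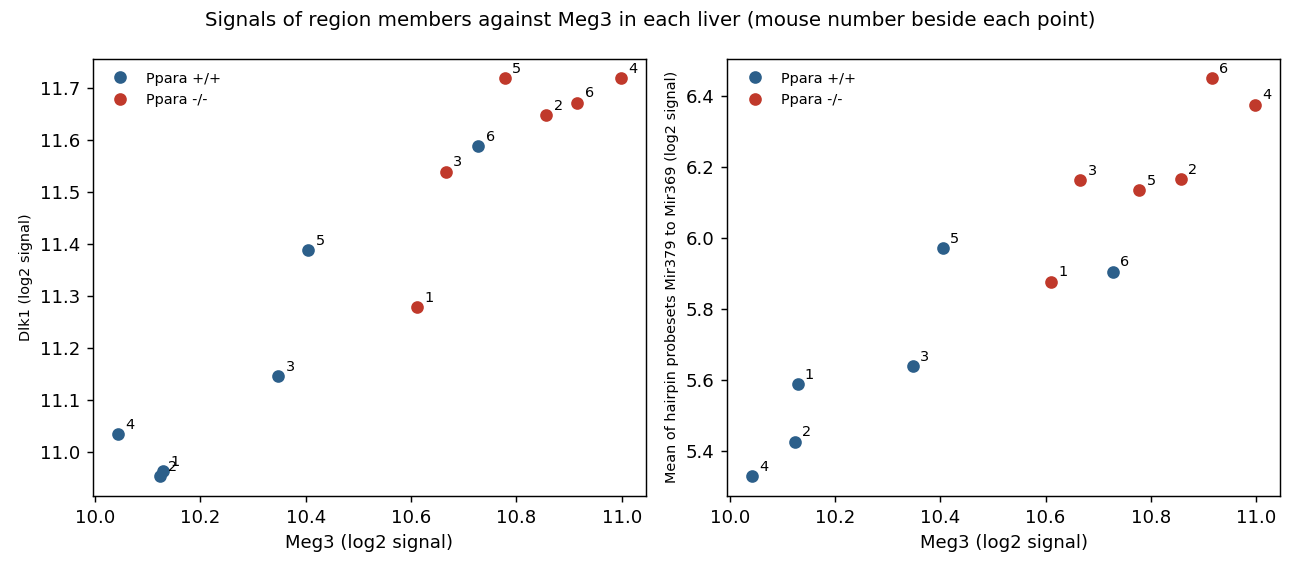
Log2 signal of Dlk1 (left) and of the mean of the 30 distal hairpin probesets (right) against Meg3 (horizontal axes) in each liver, wild-type in blue and knock-out in red, with mouse numbers. Knock-out mouse 1 and wild-type mouse 6 lie where the genotypes meet, and r with Meg3 within a genotype was 0.947 and 0.807 for Dlk1 and 0.849 and 0.863 for the hairpins.

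After each genotype's mean was subtracted, members were also compared with the mean of all the others over the 12 livers. The correlation had a median of 0.86 for the 30 distal hairpins, 0.59 for the 5 long transcripts and 0.42 for the 10 proximal hairpins. It was highest for Mir377 (0.96), Mir329 (0.95) and Mir341 (0.95), and lowest for Mir665 (0.15) and Dio3 (0.17). These are descriptions over livers that share arrays and, for many members, a precursor transcript.

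The genes outside the region that tracked the mean of the long transcripts most closely, over 12 livers and with each genotype's mean removed, were Cdr2 (r = 0.946), Ggcx (0.931), Slc35c2 (0.925), Phlda2 (0.922) and Tmed10 (0.920). Emilin1 (0.915), Tent5c (0.914), Usp17ld (0.912), C8b (0.909) and Olfr338 (0.906) came next. These 10 are the highest of all genes outside the region, so their r is high by selection. It was not tested. Phlda2 is itself an imprinted gene that restrains placental growth, and Ggcx is the vitamin K-dependent carboxylase. Between genotypes, Phlda2 differed by 0.42 (limma adjusted p = 0.10) and Ggcx by -0.02 (limma adjusted p = 0.90). Slc35c2, a membrane transporter family member, differed by 0.25 (limma adjusted p = 0.043) and was the only one of the 10 to pass.

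The region's transcripts depend elsewhere on imprint maintenance, so genes that keep or remove DNA methylation at imprints were examined as a list. Of 17 measured, 2 rose and 0 fell in the knock-out livers, and their median difference was 0.03. Over all genes 3.42% rose and 3.82% fell. In this list and those below, which are short, 1 or 2 calls are not read as a result about the list. Tet1 rose by 0.32 and Tet2 by 0.32, from 7.46 ± 0.12 to 7.78 ± 0.14 and from 8.62 ± 0.09 to 8.95 ± 0.17 (limma adjusted p = 0.014 for each). Both encode enzymes that oxidise 5-methylcytosine, and both passed in every alternative fit (highest adjusted p 0.046 and 0.039). Dnmt1, the maintenance methyltransferase, differed by 0.02 (adjusted p = 0.90), Trim28 by 0.00 (adjusted p = 0.99) and Zfp57, which guards imprints, by 0.04 (adjusted p = 0.84).

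Among other imprinted growth genes, 1 of 14 measured rose and 0 fell, and the median difference was 0.09. At an unadjusted p under 0.05 in limma, 7 of the 14 were higher and 3 lower, against 2095 and 2069 of all 19938 genes. Peg10 rose by 0.39, from 9.33 ± 0.10 to 9.73 ± 0.13 without overlap (limma adjusted p = 0.0021), and passed in every alternative fit (highest adjusted p 0.0074). Cdkn1c, a growth-restraining cell cycle inhibitor, had the larger difference of 1.02 but missed the threshold (adjusted p = 0.054), with an SD of 0.76 in the wild-type livers. With the lower and higher animal numbers as a block it passed in limma (adjusted p = 0.044), with sex as a covariate it did not (0.15), and over all alternatives its adjusted p ran from 0.0084 to 0.15. Within the 6 highest animal numbers that difference was 0.24, against 1.12 within the 6 lowest. Slc38a4 differed by -0.24 (adjusted p = 0.085).

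Of 14 genes for microRNA processing, 2 rose and 0 fell, with a median difference of 0.00. Ago2, the slicing Argonaute, rose by 0.27 (limma adjusted p = 0.030) and Ago4 by 0.27 (adjusted p = 0.041). Drosha, which cuts hairpins from their precursors, differed by 0.01 (adjusted p = 0.95), Dgcr8 by -0.16 (adjusted p = 0.31) and Dicer1 by -0.24 (adjusted p = 0.058).

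In the Notch pathway, 0 of 19 rose and 1 fell, with a median difference of 0.01. Hes1, a Notch target, fell by 0.40 (limma adjusted p = 0.049). Notch2 differed by 0.15 (adjusted p = 0.051) and Jag1 by -0.27 (adjusted p = 0.067). Of 11 genes that handle thyroid hormone, 0 rose and 2 fell, with a median difference of 0.03. Serpina7, the plasma carrier of thyroxine, fell by 1.99 on the log2 scale (adjusted p = 6.7e-05) and Klf9, a thyroid hormone-responsive factor, fell by 0.43 (adjusted p = 0.0029), both in every alternative fit (highest adjusted p 0.001 and 0.011). Dio1, the activating deiodinase of liver, differed by -0.02 (adjusted p = 0.93). Its probeset was dim, at 4.74 in knock-out and 4.76 in wild-type livers, below the 25th percentile of 5.46. Thrsp differed by 0.50 (limma adjusted p = 0.092).

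Markers of the cell types that a fetal liver holds were set beside the region, since Dlk1 marks hepatoblasts. The study itself counted hepatoblasts, by their DLK protein, and hepatocytes by flow cytometry at E19.5. It reported that loss of PPARα changed both populations only marginally. Of 9 hepatoblast markers measured, 0 rose and 1, Lgr5, fell by 0.21 (limma adjusted p = 0.036). Afp differed by 0.05 (adjusted p = 0.49), Gpc3 by 0.08 (adjusted p = 0.21) and Epcam by -0.03 (adjusted p = 0.90), and the list's mean signal lay between 9.22 and 9.33 in knock-out and between 9.31 and 9.38 in wild-type livers. Of 11 hepatocyte markers 0 rose and 1 fell, Tat, which degrades tyrosine and fell by 1.61 (adjusted p = 0.031), and Krt8, a keratin, differed by 0.27 the other way (limma adjusted p = 0.055), with 5 of 6 knock-out livers above all wild-type livers. The call of Krt8 was gained with some other settings and its adjusted p ran from 0.023 to 0.15. The list's mean ran from 11.80 to 12.04 in knock-out and from 11.89 to 12.11 in wild-type livers. Neither list had a higher range of means in the knock-out livers.

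Of 12 stellate and mesenchymal markers, Reln rose by 0.16 (limma adjusted p = 0.034) and Des fell by 0.39 (adjusted p = 0.018), and the list mean overlapped between genotypes (8.82 to 8.999 and 8.78 to 9.07). Of 10 endothelial markers 0 passed in limma, with 2 lower and 0 higher at an unadjusted p under 0.05, and all 10 had a lower knock-out mean (list mean 9.16 to 9.27 and 9.13 to 9.41). Of 10 macrophage markers 2 rose, Csf1r by 0.23 (adjusted p = 0.0096) and Cd5l by 0.40 (adjusted p = 0.041), with 6 of the 10 means higher and 4 lower in the knock-out livers. Among the lower ones, Vsig4 and Clec4f, both markers of Kupffer cells, differed by -0.25 (limma adjusted p = 0.15) and -0.11 (adjusted p = 0.40). The macrophage list had means of 9.11 to 9.29 and 9.07 to 9.18.

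Of 10 markers of megakaryocytes and stem cells, Hlf fell by 0.32 (limma adjusted p = 0.0032), and 5 of the 10 means were higher and 5 lower. Kit differed by 0.30 the other way (limma adjusted p = 0.069), with 5 of 6 knock-out livers above all wild-type livers. The means of this list were 8.64 to 8.80 and 8.65 to 8.85. In limma 0 of 7 erythroid and 0 of 10 granulocyte markers passed, with 0 and 2 at an unadjusted p under 0.05, both higher, and their list means overlapped between genotypes (10.74 to 10.95 and 10.71 to 10.99 for erythroid, 10.75 to 10.95 and 10.69 to 10.94 for granulocyte markers). The dimmest marker of all these lists, Mecom, stood at 6.12 ± 0.03 in knock-out livers. Over all genes 7.24% passed in either direction. The part of these cell types in the region's differences was not tested.

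Of these list calls, those of Des, Hlf and Csf1r held in every alternative fit (highest adjusted p 0.048, 0.012 and 0.033 in limma). Those of Ago2, Ago4, Hes1, Lgr5, Tat, Reln and Cd5l did not. All 7 were lost with sex as a covariate (limma adjusted p 0.072 to 0.13), and all but Tat (0.036) with the lower and higher animal numbers as a block (0.063 to 0.11). Each was also lost when knock-out mouse 2, 4 or 5 or wild-type mouse 1, 2 or 4 was left out, with a highest adjusted p between 0.076 and 0.13.

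The promoter of Meg3 is shown because Meg3 had the largest difference of the long transcripts. RefSeq's window of 250 bases before to 50 after the start, at chr12:109540746-109541045 on the plus strand of GRCm38.p6, reads as follows, with a cAMP response element (TGACGTCA) and a TATA box (TATAAA) in capitals.
Meg3 promoter: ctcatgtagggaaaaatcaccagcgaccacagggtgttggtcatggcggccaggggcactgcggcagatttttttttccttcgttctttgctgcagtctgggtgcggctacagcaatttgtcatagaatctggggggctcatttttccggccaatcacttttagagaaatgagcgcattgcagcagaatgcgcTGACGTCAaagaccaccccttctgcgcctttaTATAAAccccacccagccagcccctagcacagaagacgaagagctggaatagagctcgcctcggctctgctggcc

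Both motifs lie just upstream of the start, at 57 and 25 bases. Searched on both strands, TGACGTCA was found in 1 of the 6 promoter windows that RefSeq's table gives for the long members, and in 1.79% of all 32851 windows. TATAAA was found in 2 of the 6, those of this Meg3 start and of Dio3, and in 13.6% of all. CCGCCC, the GC box, was found in that of Dio3 only and in 35.7% of all. AGGTCA, the nuclear receptor half-site, was found in 1 of the 6, at a second Meg3 start, and in 16.3% of all. The direct repeat of that half-site with 1 base between its copies, the form bound by PPARα with its partner RXR, overlaps the half-site search by construction and was found in 0 of the 6 and in 0.0396% of all. A match is a match of letters and says nothing of binding in these livers, and the absence of one says only that these letters do not stand in this window.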

How the data were processed

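The authors hybridised total liver RNA (RIN over 8) to Affymetrix MoGene 1.0 ST arrays, 1 fetus per array, and deposited log2 signals made by RMA, per the labels. For the RMA version and the genome build, the sources used here give nothing. Of 35556 probesets, 21789 had a single gene symbol in the platform annotation, 1621 several and 12146 none, and 21698 were matched to RefSeq by gene ID. Each of 19938 genes took its probeset with the highest mean. Genotypes were compared over all genes with limma 3.58.1 in R 4.3.3 (lmFit and eBayes, two-sided, Benjamini-Hochberg adjustment, threshold 0.05), which was tested on simulated data. Exact permutation tests were computed over all pairings in Python 3.11.15, with ranks, rho and the Benjamini-Hochberg adjustment from scipy 1.17.1. The number of arrays limits precision. The members, lists and tests were chosen with earlier results of these data known. Named genes were Ppara, all members, called neighbours, up to 3 genes per other list with the smallest p, and the 10 genes most like the long transcripts. Other list members and the closest neighbours were named after their values were seen. Alternatives were another scaling, filter, probeset rule or variance model, mouse number, sex or animal number in the fit, and each liver left out.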

Additional observations from a re-analysis of the deposited data

Results flagged for a closer look

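In 6 of 90 groups of 6 livers (6.67%), 1 liver lay far from the rest by Dixon's criterion, which chance alone meets in about 1 in 20 groups. In the wild-type livers, mouse 6 was high for Rtl1 at 6.54 (next 6.31) and for Mir540 at 7.65 (next 7.39). In the knock-out livers, mouse 6 was high for Mir376a at 4.13 (next 3.65), for Mir487b at 6.61 (next 6.24) and for Mir539 at 6.01 (next 5.60). Knock-out mouse 1 was low for Mir541 at 4.79 (next 5.16). Mir376a did not overlap between the genotypes with or without knock-out mouse 6.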

How the results depend on the processing

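The median difference over the members, 0.40, ran from 0.36 to 0.44 with one liver left out and fell to 0.20 within the 6 highest animal numbers. Members past the threshold, 27, ran from 21 to 33 with one liver left out. They were 19 with sex as a covariate and 24 with the lower and higher animal numbers as a block. With dim genes removed at the 50th percentile, 10 of the 15 kept passed. Members without overlap, 8, ran from 8 to 19 (19 without knock-out mouse 1, 14 and 12 without wild-type mice 5 and 6), and were 3 with that filter, which tests fewer members. Over all genes 682 rose and 761 fell, with 401 and 449 under a sex covariate, 422 rising with the lower and higher animal numbers as a block, and 384 to 1374 and 447 to 1147 with one liver left out, the highest counts without knock-out mouse 1. Neighbours that fell, 4, were 1 with either the sex covariate or the animal number block, and 1 to 4 with one liver left out. Genes of the other lists that rose, 8, were 13 with quantile normalization, 16 with the filter, 14 with an intensity trend, 4 with the sex covariate and 4 to 15 with one liver left out, and those that fell, 7, were 4 with the sex covariate and 4 to 14 with one liver left out. Without the 2 farthest livers r changed for Meg3 and Rian (wild-type 0.891), Dlk1 and Meg3 (knock-out 0.076), Dlk1 and Rtl1 (-0.624 and 0.767), Dlk1 and Dio3 (-0.842 and 0.944) and Dlk1 and the distal hairpins (0.395 and 0.012). Apart from fewer genes or livers, the cause of these changes was not tested. With mouse number as a replicate block, 27 members passed and the median stayed 0.40, with 796 genes rising and 823 falling. Same-numbered livers deviated together with r from 0.019 to 0.39, all above 0 and under 0.1 in 2 of 6 pairs. Of the knock-out livers, 3 of 6 were closest to their own number. Whether same-numbered livers share more than a number was not tested. The within-sex values were chosen after seeing the data.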

Other observations

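Within the region, 3 further single-symbol probesets belong to small RNA genes that were not on the list of members. DQ267102 was bright, at 11.68 ± 0.13 in knock-out and 11.24 ± 0.31 in wild-type livers (SD, n = 6), a difference of 0.44. Its wild-type livers read 11.13, 10.83, 11.07, 11.25, 11.47 and 11.69 in mice 1 to 6, so that mice 5 and 6 were again the highest. AF357341 differed by 0.19 and DQ267101 by 0.12, both at signals below 5.46. These values come from the contrast on which the region was chosen and were not tested.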
